A study of Homo sapiens with 204 samples.

Results

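The 51 genes described here encode factors that assemble the large (60S) ribosomal subunit without staying in it. They were chosen by name, matched to Ensembl identifiers through their symbols, and all 51 were found among 41379 genes counted in RNA-seq and 19217 genes counted in Ribo-seq. All 51 passed the filter on low counts in both assays, so none is left out of any count below. The cells were A549, an established human lung adenocarcinoma line. Each culture received siRNA against 1 ribosomal protein at 40 nM for 24 h, and controls received non-targeting siRNA under the same conditions. Cycloheximide, which holds ribosomes on mRNA, was added to all cultures before harvest, and each lysate was divided between Ribo-seq, which counts ribosome-protected footprints, and RNA-seq, which counts mRNA fragments. In each assay, 48 libraries came from knockdowns of 44 large-subunit proteins, 43 from knockdowns of 31 small-subunit proteins and 11 from controls. The knockdowns are transient, and 16 of the 75 targets have 2 libraries. The sources used here do not say which libraries came from separate cultures, so a p-value here speaks of the variation among libraries, which may be technical.

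Ribosomal subunits are built in the nucleolus around precursor rRNA, and the large subunit needs its own set of helicases, GTPases, AAA ATPases, placeholder proteins and nucleases. The precursor passes from the nucleolus to the nucleoplasm, where the spacer next to the large rRNA is cut out, and is then exported to the cytoplasm, where the last factors are exchanged for ribosomal proteins. Growing cells make much of this machinery, and its genes are often transcribed together under MYC, which binds the E-box sequence CACGTG. The mRNAs of ribosomal proteins differ from most others in that they start with C followed by a run of pyrimidines, a feature through which their translation follows nutrient signalling.

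That start was looked for in the members, because the member whose values moved most with the subunit of the target, NOP53, has it. RefSeq start sites (GRCh38.p14) were matched for 44 of the 51 members. A start was counted where base 1 or base 2 of the transcript was a C followed by at least 5 C or T on the transcribed strand. By this rule 5 of 44 members (11.4%) had such a start, against 5.98% of 27305 genes in the same table and 44 of 60 matched targeted ribosomal proteins (73.3%). The 30 bases from 10 before to 20 after the start of these 5 members follow, with the run of pyrimidines in capitals. NOP53 lies at chr19:47745536-47745565 (plus strand), NLE1 at chr17:35142284-35142313 (minus strand), RSL24D1 at chr15:55196922-55196951 (minus strand), NSA2 at chr5:74767239-74767268 (plus strand) and EBNA1BP2 at chr1:43172551-43172580 (minus strand, for 1 of its start sites).
NOP53: tggctgagttCTTCCTTTgacaagatggcg
NLE1: gtctgccgggCTCTTTCTCCTCCacgtggg
RSL24D1: gggttgcatcaCTTCCTCTCaagcttggcg
NSA2: ttaaagggtgaCTCTTTCCTgtcccggcct
EBNA1BP2: tcccctttccCCTCCCCCggggtcctcctc
A match is a description of letters and not a shown site of control. The E-box CACGTG, which reads the same on both strands, was present between 250 bases before and 50 after a start in 14 of the 44 members (31.8%) and in 8.77% of all genes.

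Libraries held 18.8 to 63.6 M counts in RNA-seq (median 27.8 M) and 7.77 to 57.2 M counts in Ribo-seq (median 23.8 M). The mRNA of the targeted protein fell to between 1.57% and 15.9% of control in its own knockdown, with all 75 targets under 25%. A549 and lung epithelial markers summed to between 7512 and 16506 CPM (the count of a gene relative to all counts of its library) in RNA-seq, and 11 markers of blood, fibroblast and endothelial cells to between 5.45 and 57.2 CPM, with PTPRC, COL1A2 and DCN at a median of 0. Titles fall into a set with numbers (6 control, 8 large-subunit and 24 small-subunit libraries) and a set without (5, 40 and 19), so title set and subunit are partly confounded. The title set is a term in each fit, and log2 ratios of single targets are taken to controls of their own title set. In column order, the last run of columns holds controls 21_1 and 21_2 and RPS16 replicate 2, all counted as numbered, and some unnumbered targets. Ratios of these unnumbered targets use the unnumbered controls, which stand in an earlier run. RPS16 replicate 1 stands in that earlier run, among the unnumbered libraries. Ratios of both RPS16 libraries use the numbered controls, most of which stand in the first run. One control library, numbered 20_2, stands apart in RNA-seq, where 14 of the 51 members lay more than 1 log2 unit below the control mean. Its SD over the members was 0.86. Controls 21_1 and 21_2 also departed, with an SD of 0.51 and 0.48, against at most 0.28 in the other controls. Both RPS7 libraries also differed in RNA-seq, with a correlation over the 51 members of -0.03 against a median of 0.92 over the 16 repeated targets. In these bulk libraries a change in mRNA per cell and a change in the make-up of the culture cannot be told apart.

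In knockdowns of large-subunit proteins, 7 of the 51 members were higher and 9 lower than in control in RNA-seq, by edgeR's quasi-likelihood test with Benjamini-Hochberg adjustment over all genes at a threshold of 0.05. Of all 15526 genes tested, 15.5% were higher and 20.0% lower, so the members' share was near that of the background. In knockdowns of small-subunit proteins, 5 members were higher (13% of all genes) and 8 lower (15.9% of all genes). Ribo-seq gave 10 members higher (background 14.9%) and 9 lower (background 14.9%) in large-subunit knockdowns, and 6 higher (12.5%) and 7 lower (12.4%) in small-subunit knockdowns. The median log2 fold change of the members was -0.04 and -0.08 in RNA-seq and 0.00 and -0.02 in Ribo-seq, in large- and small-subunit knockdowns respectively. Both comparisons use the same controls. Members moved in both directions around medians near 0, and the named members below are those that passed the test.

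Set directly against small-subunit knockdowns, large-subunit knockdowns had 11 members higher (15.2% of all genes) and 6 lower (16.4%) in RNA-seq. In Ribo-seq 11 members were higher (10.9% of all genes) and 4 lower (11.2%). The median log2 difference was -0.01 in RNA-seq and 0.05 in Ribo-seq. The 11 members higher in RNA-seq were NOP53, RSL24D1, RRS1, NLE1, NSA2, GNL3L, RSL1D1, EIF6, NOP2, NIP7 and ZNF622. Without a term for the title set, 18 members rather than 6 were lower in RNA-seq, and 13 rather than 4 in Ribo-seq. Of 39 values called for the members named here with full statistics, 23 stayed past the threshold within the numbered set alone and 20 within the unnumbered set alone, and none changed sign in either.

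**Figure D1:**
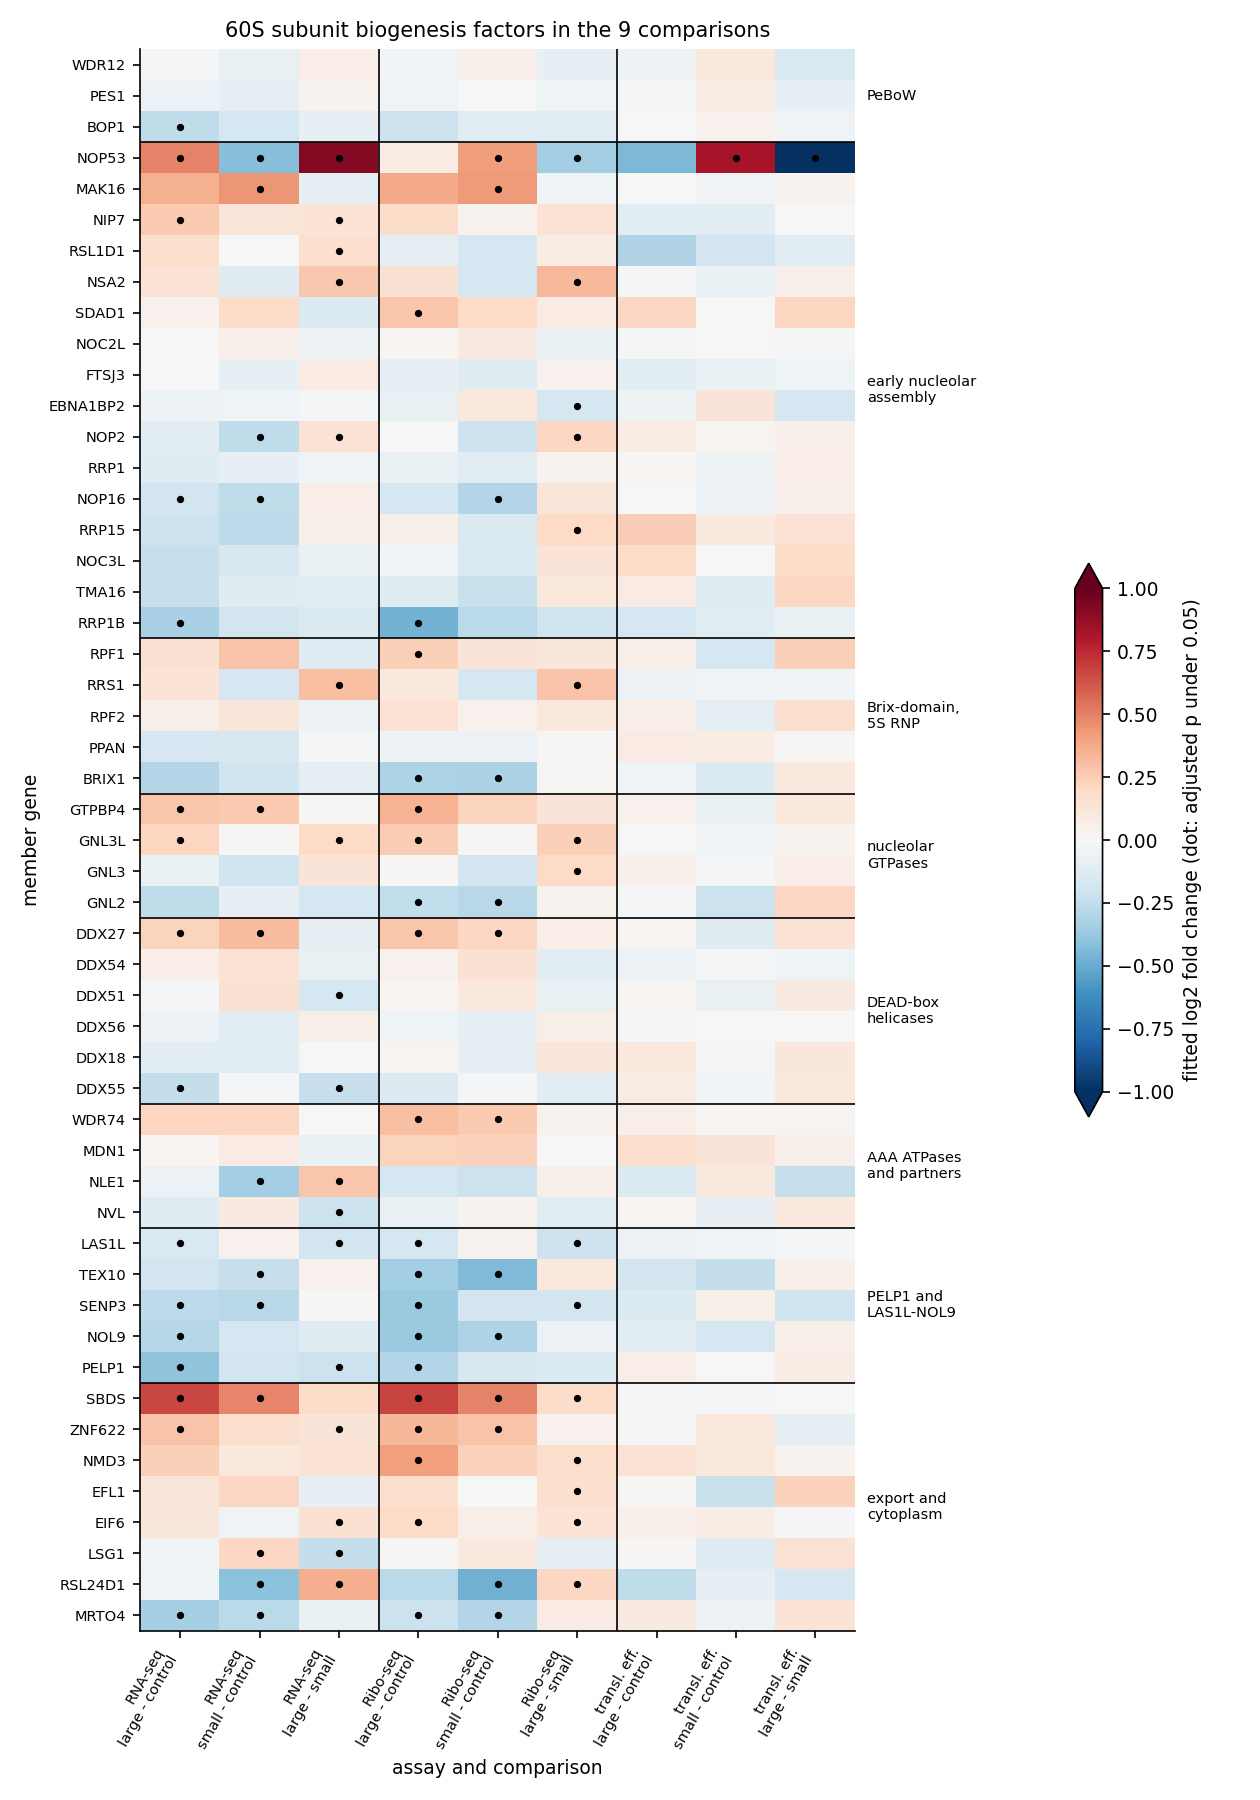
Log2 fold change of the 51 members (lines, grouped by role) in the 9 comparisons (columns, by assay), with marked cells past an adjusted p of 0.05. NOP53 has the largest difference between large- and small-subunit knockdowns, 0.92 in RNA-seq and -1.27 in translation efficiency.

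NOP53 (GLTSCR2, ENSG00000105373, chr19:47745546-47757058) is an assembly factor that brings the RNA exosome to the spacer of the large-subunit precursor. Its mRNA was higher in large-subunit knockdowns and lower in small-subunit knockdowns than in control. Its level in RNA-seq was 115 CPM at the lowest, 154 at the median and 261 at the highest in controls, 142, 193 and 289 CPM in large-subunit knockdowns, and 73.5, 114 and 184 CPM in small-subunit knockdowns. The groups overlap on this scale, which does not remove the title set: numbered controls held 154 to 261 CPM and unnumbered controls 115 to 145 CPM. The log2 fold change was 0.49 (SE 0.088, adjusted p = 4.1e-06) in large-subunit knockdowns and -0.43 (SE 0.081, adjusted p = 2.0e-05) in small-subunit knockdowns, by edgeR's quasi-likelihood test. The difference between both knockdown classes was 0.92 (SE 0.056, adjusted p = 3.3e-27), which ranked 21st from the top among 15526 genes. It was 1.04 within the numbered set and 0.85 within the unnumbered set. The fall in small-subunit knockdowns was not past the threshold in the unnumbered set alone (-0.23, adjusted p = 0.24).

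Footprints on NOP53 moved the other way in small-subunit knockdowns and between both classes, but not in large-subunit knockdowns against control. Its Ribo-seq level was 64.4, 73.2 and 131 CPM in controls, 49.2, 75.7 and 139 CPM in large-subunit knockdowns and 61.1, 126 and 199 CPM in small-subunit knockdowns, at the lowest, median and highest library. Against control, the footprint level was higher in small-subunit knockdowns by 0.42 on the log2 scale (SE 0.10, adjusted p = 9.0e-04; 0.38 with adjusted p = 0.13 in the unnumbered set). In large-subunit knockdowns the fold change was 0.07 and did not pass the threshold (adjusted p = 0.61). Between both classes, footprints were lower in large-subunit knockdowns by edgeR's test, with a log2 difference of -0.35 (SE 0.066, adjusted p = 3.2e-05; -0.32 with adjusted p = 0.090 in the numbered set).

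Translation efficiency is used here for the ratio of Ribo-seq to RNA-seq level of a gene, on the log2 scale, and was tested in 1 model of both assays as a term for how the effect of a group differs between them. The log2 ratio of CPM for NOP53 ran from -1.12 over a median of -0.83 to -0.43 in controls, from -1.90 over -1.39 to -0.19 in large-subunit knockdowns, and from -1.12 over 0.14 to 0.87 in small-subunit knockdowns. The median small-subunit library thus carried more NOP53 footprints relative to mRNA than any control library. NOP53 translation efficiency was higher in small-subunit knockdowns than in control by 0.82 (SE 0.13, adjusted p = 3.0e-06; 1.06 in the numbered set, and 0.60 with adjusted p = 0.72 in the unnumbered set). Between large- and small-subunit knockdowns it differed by -1.27 (SE 0.086, adjusted p = 1.0e-30), ranked 13th from the bottom among 12480 genes, with -1.35 and -1.21 within the numbered and unnumbered sets. In large-subunit knockdowns against control the value was -0.45 and missed the threshold (adjusted p = 0.077). Because both assays of a lysate share their source, per-lysate ratios were also tested with limma, which gave -0.46 (adjusted p = 0.027).

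**Figure D2:**
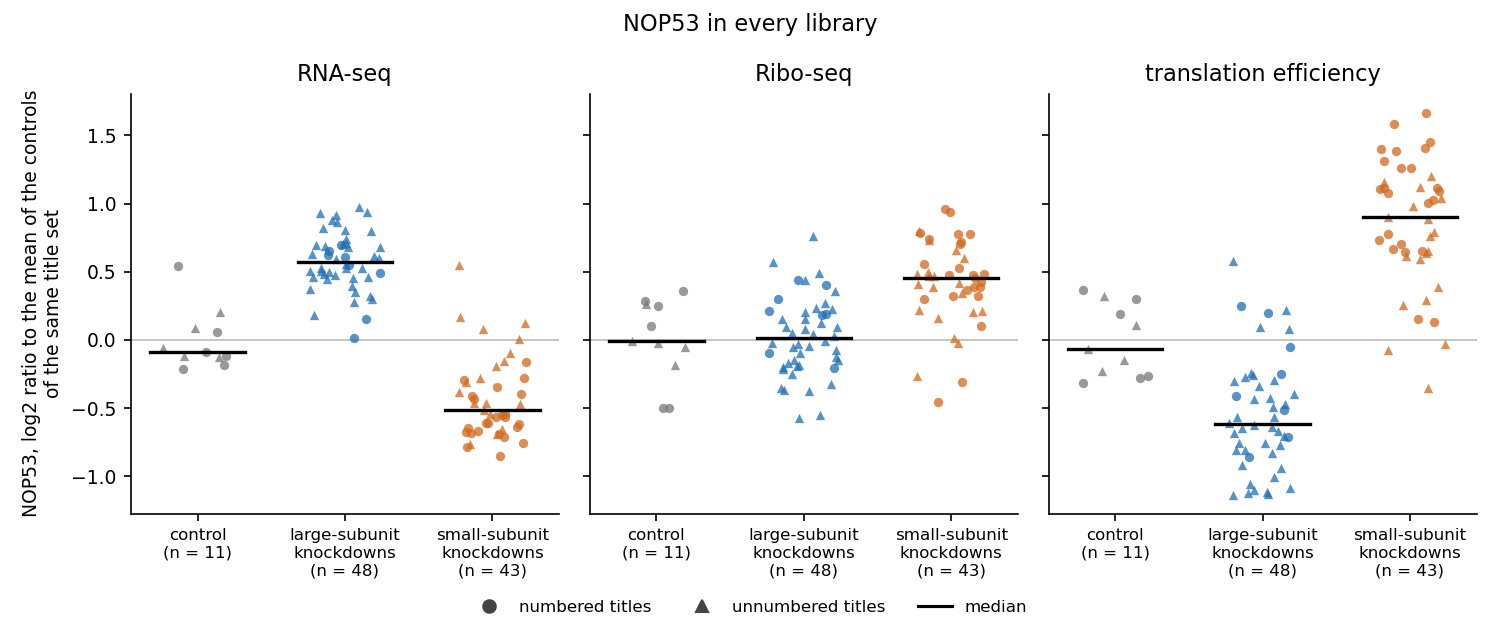
NOP53 in every library, as log2 ratio to the control mean within its title set, in RNA-seq, Ribo-seq and translation efficiency; each point is 1 library (48 large-subunit, 43 small-subunit, 11 control). In RNA-seq the 40 unnumbered large-subunit libraries lie between 0.18 and 0.97, and the 24 numbered small-subunit libraries between -0.85 and -0.16.

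The pattern was broad over targets. NOP53 mRNA was above control in all 44 large-subunit targets and in 5 of 31 small-subunit targets, namely RPS4Y (0.55), RPS27 (0.16), RPS6 (0.12), RPS4X (0.08) and RPS27L (0.00). RPS4Y, RPS6 and RPS4X, and RPL30 named below, stand in the last run of columns, apart from the controls of their ratios. Whether that run is a batch is not given in the sources used here. The lowest NOP53 mRNA value among large-subunit targets was 0.09 in the RPL29 knockdown and the highest 0.97 in the RPL32 knockdown. Footprints were above control in 21 large-subunit and 28 small-subunit targets. For numbered targets, control is the mean of 6 numbered controls. Their NOP53 footprints ran from -0.50 (control 21_2, of the last run) to 0.36 (control 20_1), with a median of 0.18. Footprint and translation efficiency values of numbered targets, RPS3 among them, thus depend on which of these controls enter the mean. mRNA above and footprints below control occurred in 23 large-subunit targets and 1 small-subunit target, and the opposite, mRNA below and footprints above, in 0 large-subunit and 24 small-subunit targets. Both RPS15 and RPS19 knockdowns had the 2 readouts below control. The RNA-seq columns of RPS15 carry another sample number than the sample titles, so they were matched by target and replicate, which holds for each RPS15 value in RNA-seq and translation efficiency given here. Translation efficiency was below control in all but 5 large-subunit targets (RPLP2, RPL5, RPL29, RPLP1 and RPL22) and above it in 28 small-subunit targets. Its lowest value was -1.14 in the RPL30 knockdown and its highest 1.56 in the RPS3 knockdown, where mRNA was at -0.69 and footprints at 0.87. The 32 large-subunit targets with the lowest values lay below every small-subunit target, the lowest of which was RPS4Y at -0.35.

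**Figure D3:**
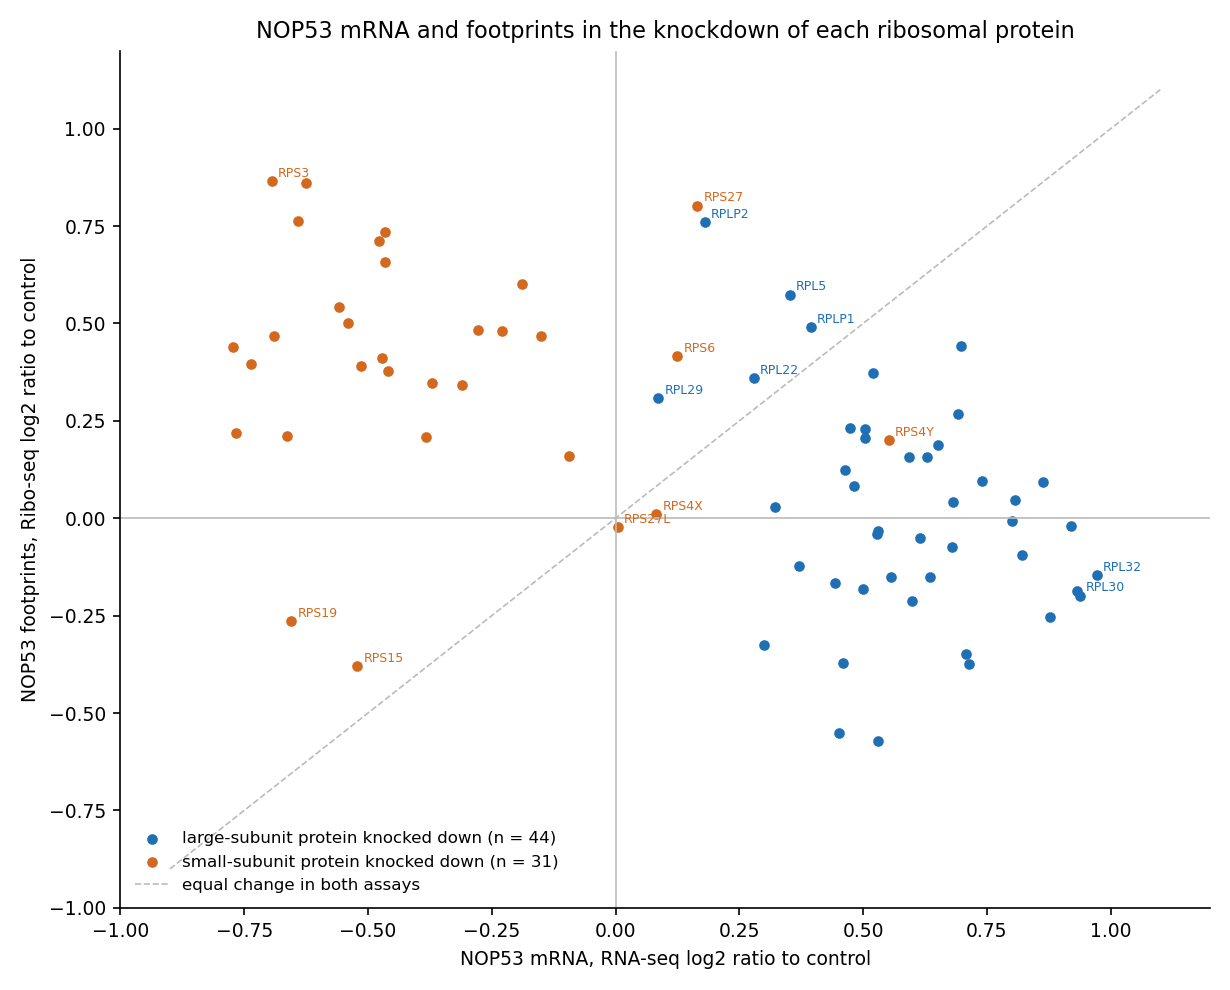
NOP53 footprints (Ribo-seq) against NOP53 mRNA (RNA-seq) in the knockdown of each of 75 ribosomal proteins, as log2 ratios to control, with the targets named in the text labelled. All 44 large-subunit targets lie right of 0 on the mRNA axis, and 24 of 31 small-subunit targets lie left of 0 with footprints above 0.

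NOP53 was also the member that varied most over targets in RNA-seq, with an SD of 0.544 over 75 targets against a median of 0.246 over members. In translation efficiency its SD was 0.796, above that of 99.3% of genes, where the median member had 0.227. Control 20_2 had the highest NOP53 mRNA of the controls, at 0.55, and the other 10 lay between -0.21 and 0.20. Without that control, the rise in large-subunit knockdowns was 0.59, and the fall in translation efficiency of -0.51 passed the threshold (adjusted p = 0.034). The NOP53 gene overlaps SNORD23 and, by 23 bases, NOP53-AS1, and whether counting used the strand is not given in the sources used here.

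Translation efficiency of the other 50 members stayed near control. Against control in large-subunit knockdowns, 0 members were called higher and 0 lower by edgeR (0.393% and 0.345% of all genes). At an unadjusted p under 0.05, 0 were higher and 2 lower, and DESeq2 called 0 in each direction. In small-subunit knockdowns NOP53 was the 1 member called higher (0.433% of all genes) and 0 were lower (0.12%). Between the classes 0 were higher (1.07%) and NOP53 was the 1 lower (2.52%). The other 50 members ranged from -0.30 (RSL1D1) to 0.24 (RRP15) in large-subunit knockdowns, from -0.23 (TEX10) to 0.13 (MDN1) in small-subunit knockdowns, and from -0.23 (NLE1) to 0.24 (RPF1) between them.

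Tested per lysate with limma, more members passed. Between the classes 6 members were higher (7.56% of all genes), namely EFL1, RPF1, GNL2, MRTO4, LSG1 and DDX27. In the same comparison 5 were lower (8.42%), namely NOP53 (-1.28), NLE1 (-0.23, adjusted p = 0.0021), SENP3 (-0.19), EBNA1BP2 (-0.18) and WDR12 (-0.16). Against control, RSL1D1 was lower beside NOP53 in large-subunit knockdowns (-0.35, adjusted p = 0.018), which makes 2 members lower (4.4% of all genes) and 0 higher (2.2%). In small-subunit knockdowns TEX10 (-0.25) and NOL9 (-0.18) were the 2 members lower (3.93%), and NOP53 (0.83) the 1 higher (2.36%). The value of RSL1D1 lies near that of NOP53 in the same comparison (-0.46), whereas between the classes the other called members lie between -0.23 and 0.23, against -1.28 for NOP53.

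The 5 members with a pyrimidine start were compared with the other 39 matched members. NOP53, for which the start was looked for, is 1 of the 5, so its own values are no support. Of the other 4, 3 (RSL24D1, NLE1 and NSA2) were higher in RNA-seq in large- than in small-subunit knockdowns and 0 lower, against 5 higher and 6 lower of 39. EBNA1BP2 did not pass the threshold (-0.01). In Ribo-seq RSL24D1 and NSA2 were higher and EBNA1BP2 lower, as was NOP53, and in translation efficiency NOP53 was the 1 called. Over all 902 tested genes with such a start, 23.2% were higher and 14.9% lower in RNA-seq, against 14.1% and 17.5% of 10060 others. In Ribo-seq the shares went the other way, with 9.16% of 862 such genes higher and 17.3% lower, against 10.9% and 10.8% of 9310 others. In translation efficiency 11.5% of 851 such genes were lower and 0.705% higher, against 1.65% and 1.05% of 9089 others. Targeted ribosomal proteins, of which 44 of 60 matched have such a start, were not left out of these shares. Whether the start bears on any of these values was not tested. Of the 14 members with an E-box, 2 were higher and 1 lower in RNA-seq, against 7 and 5 of the 30 without. Among all tested genes with an E-box in this window 15.8% were higher and 13.2% lower, and among those without 14.7% and 17.9%, so the members with an E-box were near or below the share of all such genes.

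NLE1, the WD-repeat partner through which the AAA ATPase MDN1 acts on the precursor, was lower in small-subunit knockdowns. Its mRNA level was 36.7, 45.6 and 77.4 CPM in controls, 27.5, 39 and 67.0 CPM in large-subunit knockdowns and 27.3, 36.9 and 51.3 CPM in small-subunit knockdowns, at the lowest, median and highest library. The groups overlap, yet 0 of 31 small-subunit targets had NLE1 mRNA above the controls of their set. The log2 fold change in small-subunit knockdowns was -0.34 (SE 0.068, adjusted p = 7.0e-05 by edgeR) and the difference of large from small was 0.28. MDN1 itself was called in none of the comparisons. NVL, an AAA ATPase that releases WDR74 from the precursor, was lower in large- than in small-subunit knockdowns in RNA-seq (-0.21), and WDR74 had more footprints than control in both classes (0.30 and 0.26).

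RSL24D1 holds the place of the ribosomal protein RPL24 on the precursor until the cytoplasm. Its mRNA level was 19.3, 96.5 and 112 CPM in controls, 37.9, 98.8 and 124 CPM in large-subunit knockdowns and 13.5, 57.4 and 94.0 CPM in small-subunit knockdowns. The ranges overlap on this scale, which does not remove the title set. Every small-subunit library lay below the control median, which pools both title sets. Log2 ratios of single controls to the mean of their own set ran from -1.42 to 0.93. In small-subunit knockdowns the fold change was -0.41 in RNA-seq (SE 0.12, adjusted p = 0.0076) and -0.48 in Ribo-seq (SE 0.11, adjusted p = 4.4e-04), by edgeR. Within a title set alone, the RNA-seq value did not pass in the numbered set (-0.49, adjusted p = 0.18), nor the Ribo-seq value in the unnumbered set (-0.41, adjusted p = 0.057). The RNA-seq value did not pass without control 21_1 (-0.29, adjusted p = 0.067) or without control 21_2 (-0.31, adjusted p = 0.057). In the fit with the replicate number as a block, the value passed in neither assay. That fit also keeps both of these controls out of the comparison. Large-subunit knockdowns were higher than small-subunit knockdowns by 0.37 (SE 0.086, adjusted p = 4.7e-04) in RNA-seq and by 0.21 in Ribo-seq. In the knockdown of RPL24 itself, RSL24D1 was at -0.10 in RNA-seq and -0.06 in Ribo-seq over 2 libraries, 31st from the lowest and 18th from the highest of 75 targets, and within the controls in both.

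The PELP1-TEX10-SENP3 complex works with the endonuclease LAS1L and the polynucleotide kinase NOL9, which cut and phosphorylate the spacer of the precursor, and SENP3 removes SUMO from the complex. In large-subunit knockdowns 4 of these 5 members were lower than control in RNA-seq (20.0% of all genes) and 0 higher (15.5%). The 4 were PELP1 (-0.40), NOL9 (-0.29), SENP3 (-0.26) and LAS1L (-0.15). TEX10 was at -0.19 and did not pass. In Ribo-seq all 5 were lower (14.9% of all genes): SENP3 (-0.37), NOL9 (-0.37), TEX10 (-0.34), PELP1 (-0.30) and LAS1L (-0.18). Within a title set fewer passed, with 1 in RNA-seq in each set and 2 (numbered) or 1 (unnumbered) in Ribo-seq. Without control 20_2, 3 members passed in each assay. The shares of all genes in these settings are not given here. Over targets, all 5 members were below control in RNA-seq in 27 of 44 large-subunit and 3 of 31 small-subunit targets, and in Ribo-seq in 28 and 7.

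PELP1 (chr17:4669774-4704137), a scaffold of the complex, had 80.3, 109 and 259 CPM in RNA-seq in controls, 17.2, 78.5 and 137 CPM in large-subunit knockdowns, and 57.1, 105 and 216 CPM in small-subunit knockdowns. Its fold change of -0.40 in large-subunit knockdowns had an SE of 0.11 and an adjusted p of 0.0017 by edgeR, with -0.50 in the numbered set and -0.23 (adjusted p = 0.25) in the unnumbered set. SENP3 footprints were 47.3, 58.4 and 79.5 CPM in controls, 24.3, 46.9 and 69.7 CPM in large-subunit and 21, 53.8 and 66.6 CPM in small-subunit knockdowns. All these ranges overlap. For NOL9 the footprint levels were 73.6, 81.6 and 90.6 CPM in controls and 37.1, 64.7 and 112 CPM in large-subunit knockdowns, the latter reaching past the controls on both sides.

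Small-subunit knockdowns lowered part of the same complex. In RNA-seq SENP3 (-0.27) and TEX10 (-0.23) were lower, and in Ribo-seq TEX10 (-0.45, SE 0.090, adjusted p = 8.3e-05 by edgeR) and NOL9 (-0.31). TEX10 footprints were 76.2, 100 and 119 CPM in controls, 45.3, 80.5 and 125 CPM in large-subunit and 47.1, 72.6 and 118 CPM in small-subunit knockdowns. This fall passed in both title sets (-0.43 and -0.46). Compared directly, PELP1 (-0.22) and LAS1L (-0.19) were lower in large- than in small-subunit knockdowns in RNA-seq, and LAS1L (-0.21) and SENP3 (-0.18) in Ribo-seq. The SENP3 difference did not pass when any 1 of the controls 11_1, 11_2, 1, 5, 7, 9, 21_1 and 21_2 was left out (adjusted p up to 0.060). SENP3 shares nearly its whole span with the read-through gene SENP3-EIF4A1, so its counts are uncertain.

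Among the 8 members of export and cytoplasmic maturation, SBDS rose most. SBDS (chr7:66987680-66995586), which with the GTPase EFL1 frees the new subunit from EIF6, had 22, 57.6 and 67.8 CPM in RNA-seq in controls, 59.9, 86.9 and 132 CPM in large-subunit knockdowns and 28.7, 75.6 and 109 CPM in small-subunit knockdowns. Only the lower end of the large-subunit range overlaps the controls. The fold change in large-subunit knockdowns was 0.67 in RNA-seq (SE 0.12, adjusted p = 5.3e-06) and 0.68 in Ribo-seq (SE 0.11, adjusted p = 2.8e-07), by edgeR. In small-subunit knockdowns it was 0.49 in both assays, with an adjusted p of 8.4e-04 and 1.4e-04, and did not pass in the unnumbered set alone (0.37 and 0.35). SBDS was above control in all 44 large-subunit targets in both assays and in 27 of 31 small-subunit targets. Its near-identical pseudogene SBDSP1 may take or lend reads, so its values are uncertain.

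Other members of this group rose less. ZNF622, which acts on cytoplasmic precursors, rose by 0.29 in RNA-seq in large-subunit knockdowns (SE 0.077, adjusted p = 0.0020 by edgeR), from 15.3, 18.3 and 32.9 CPM in controls to 13.9, 21.4 and 41.9 CPM. The ranges overlap, and without the title set as a term the value was 0.09 (adjusted p = 0.56). ZNF622 footprints rose by 0.33 and 0.29 in large- and small-subunit knockdowns. NMD3, the export adaptor of the large subunit, had 65.3, 86.6 and 111 CPM of footprints in controls, 44.5, 118 and 154 CPM in large-subunit and 70.0, 98.9 and 145 CPM in small-subunit knockdowns. It rose by 0.41 in large-subunit knockdowns (SE 0.098, adjusted p = 6.8e-04 by edgeR), with 0.72 in the numbered set and 0.23 (adjusted p = 0.34) in the unnumbered set. EIF6 footprints were higher by 0.20 in large-subunit knockdowns. In the direct comparison, 5 of the 8 members had more footprints in large- than in small-subunit knockdowns (10.9% of all genes) and 0 fewer (11.2%). The 5 were NMD3 (0.18), SBDS (0.18), EFL1 (0.16), EIF6 (0.14) and RSL24D1 (0.21).

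MRTO4, which holds the place of the stalk protein RPLP0 in the nucleus, went down. Its mRNA level was 81.0, 101 and 174 CPM in controls, 48.0, 73.3 and 130 CPM in large-subunit and 52.8, 86.7 and 130 CPM in small-subunit knockdowns. It was lower in all 4 comparisons with control, by -0.33 (SE 0.085, adjusted p = 0.0012 by edgeR) and -0.27 in RNA-seq and by -0.21 and -0.29 in Ribo-seq. In the RPLP0 knockdown MRTO4 was instead near or above control, at 0.00 in RNA-seq and 0.23 in Ribo-seq, from 1 library and with no test. The Ribo-seq value is the second from the highest of 75 targets but lies within the controls, which ran from -0.22 to 0.25. LSG1, the GTPase that frees NMD3, was lower in large- than in small-subunit knockdowns in RNA-seq (-0.24, SE 0.041, adjusted p = 2.6e-06 by edgeR). Its level was 33.6, 45.7 and 56.8 CPM in controls, 24.0, 44.5 and 56.2 CPM in large-subunit and 42.1, 53.3 and 64.5 CPM in small-subunit knockdowns, and it rose by 0.21 in the latter. NMD3 and LSG1 act where RPL10 joins the subunit. In the RPL10 knockdown they were at -0.44 and -0.27 in RNA-seq, 8th and 6th from the lowest of 75 targets. In Ribo-seq they were at -0.06 and -0.05. All lay within the controls, but single controls reached -1.65 for NMD3 and -0.37 for LSG1 in RNA-seq. For NMD3 that range is too wide to set the value apart. RPL10 has 1 library, which stands in the last run of columns, apart from the controls of its ratio.

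**Figure D4:**
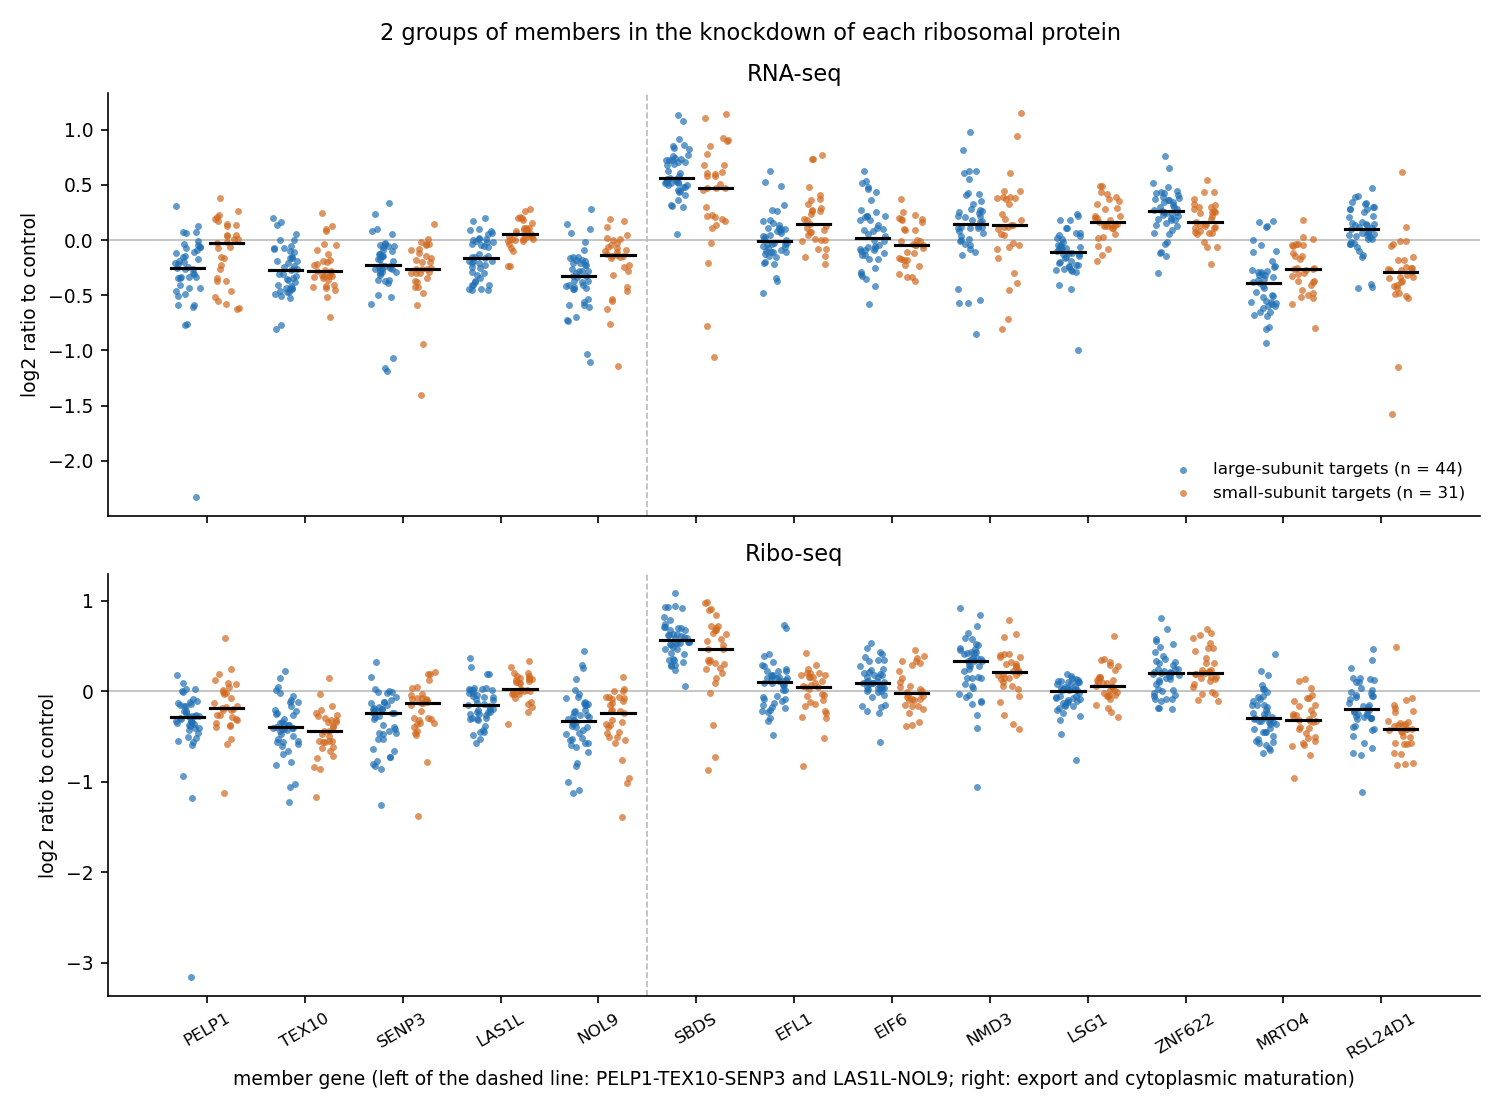
Log2 ratio to control of the 5 members of the PELP1-TEX10-SENP3 and LAS1L-NOL9 complexes (left of the dashed line) and the 8 export and cytoplasmic maturation members (right) in RNA-seq and Ribo-seq; each point is 1 of 75 targets, coloured by subunit. SBDS lies above 0 in all 44 large-subunit targets, and PELP1 reaches -2.32 in RNA-seq in the RPL26 knockdown.

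The PeBoW complex of PES1, BOP1 and WDR12, which is needed for processing of the large rRNAs, stayed close to control. BOP1 mRNA had 90.0, 114 and 236 CPM in controls, 56.9, 92.4 and 177 CPM in large-subunit and 84.7, 115 and 172 CPM in small-subunit knockdowns. It was lower in large-subunit knockdowns (-0.26, SE 0.084, adjusted p = 0.012 by edgeR), but not without control 20_2 (-0.15, adjusted p = 0.14). PES1 had medians of 120, 125 and 133 CPM in control, large- and small-subunit libraries and fold changes of -0.06 (SE 0.079) and -0.09 (SE 0.077) in RNA-seq. WDR12 had medians of 64.6, 60.7 and 55.6 CPM and fold changes of -0.01 (SE 0.072) and -0.08 (SE 0.071). Neither PES1 nor WDR12 was called in RNA-seq or Ribo-seq in any comparison, where their fold changes lay between -0.09 and 0.07.

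Among the 16 early nucleolar factors, 2 were higher and 2 lower in RNA-seq in large-subunit knockdowns, and 1 higher and 3 lower in small-subunit knockdowns. These shares (12.5% each, 6.25% and 18.75%) were below those of all genes in the first 3 cases (15.5%, 20.0% and 13%) and above in the last (15.9%). RRP1B, a paralog of RRP1, was lower in large-subunit knockdowns by -0.33 in RNA-seq (SE 0.11, adjusted p = 0.015) and -0.47 in Ribo-seq (SE 0.13, adjusted p = 0.0026), by edgeR. Its footprints were 61.7, 77.5 and 97.5 CPM in controls, 9.62, 55.7 and 75.5 CPM in large-subunit and 28.9, 67.3 and 111 CPM in small-subunit knockdowns, so the large-subunit range reached far below the controls. MAK16 was higher in small-subunit knockdowns, by 0.44 in RNA-seq (SE 0.15, adjusted p = 0.019 by edgeR) and 0.43 in Ribo-seq (adjusted p = 0.040). Its mRNA had 17.3, 59.4 and 73.1 CPM in controls and 20.3, 81.2 and 114 CPM in small-subunit knockdowns. Without control 20_2 neither MAK16 value passed (adjusted p = 0.052 and 0.066), and the Ribo-seq value was also lost, with adjusted p between 0.054 and 0.079, without each of the controls 11_1, 11_2, 20_1, 1, 5 and 9.

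NOP16 mRNA was lower in both classes (-0.19 and -0.26) and its footprints in small-subunit knockdowns (-0.29). The rRNA methyltransferase NOP2 was lower in small-subunit knockdowns in RNA-seq (-0.26) and higher in large- than in small-subunit knockdowns in both assays (0.15 and 0.21). NIP7 rose by 0.26 in RNA-seq and SDAD1 by 0.28 in Ribo-seq in large-subunit knockdowns. NSA2 was higher in large- than in small-subunit knockdowns by 0.27 in RNA-seq and 0.33 in Ribo-seq (SE 0.088, adjusted p = 0.0036 by edgeR). Its footprints had 17.2, 47.4 and 80.2 CPM in large-subunit and 13.1, 45.2 and 67.0 CPM in small-subunit knockdowns, ranges that nearly coincide before the title set is taken into account, and without the title set the value was 0.19 (adjusted p = 0.076). EBNA1BP2 footprints were lower by -0.18 in the same comparison, and RSL1D1 mRNA (0.17) and RRP15 footprints (0.20) higher.

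RRS1 and RPF2 load the 5S RNP, the particle of 5S rRNA with RPL5 and RPL11. RRS1 was higher in large- than in small-subunit knockdowns by 0.30 in RNA-seq (SE 0.057, adjusted p = 1.3e-05) and 0.28 in Ribo-seq (SE 0.065, adjusted p = 6.4e-04), by edgeR; without the title set as a term the latter was 0.12 (adjusted p = 0.17). Its mRNA had 50.0, 57.7 and 66.4 CPM in controls, 46.4, 62.9 and 85.6 CPM in large-subunit and 24.1, 51.6 and 71.8 CPM in small-subunit knockdowns. In the knockdown of RPL5, RRS1 was at 0.44 in RNA-seq and 0.04 in Ribo-seq, and its translation efficiency of -0.40 was the lowest of 75 targets but within the controls, which ran from -0.65 to 0.48. In the RPL11 knockdown it was at 0.16 and -0.19, with a translation efficiency of -0.35. RPF2 went to 0.15 and 0.39 in the RPL5 knockdown and to 0.18 and 0.39 in the RPL11 knockdown, in RNA-seq and Ribo-seq. These are single libraries, and control values of RPF2 ran from -1.20 to 0.56 in RNA-seq and from -0.49 to 0.57 in Ribo-seq. Of the Brix-domain proteins, which bind precursor rRNA, BRIX1 had fewer footprints in both classes (-0.31 and -0.32, the latter with SE 0.089 and adjusted p = 0.0043 by edgeR), and RPF1 more in large-subunit knockdowns (0.24).

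The 4 nucleolar GTPases, which act as checkpoints of maturation, split. GTPBP4 was higher in both classes in RNA-seq (0.28 and 0.26) and in large-subunit knockdowns in Ribo-seq (0.35, SE 0.12, adjusted p = 0.016 by edgeR). Its footprints had 158, 213 and 255 CPM in controls, 136, 270 and 382 CPM in large-subunit and 89.7, 245 and 328 CPM in small-subunit knockdowns, so the medians rose while the ranges overlapped. GNL3L was higher in large-subunit knockdowns than in control (0.21 and 0.25) and than in small-subunit knockdowns (0.20 and 0.24), in RNA-seq and Ribo-seq. GNL3 (nucleostemin) had more footprints in large- than in small-subunit knockdowns (0.20), and GNL2 had fewer than control in both classes (-0.24 and -0.28). Of 6 DEAD-box RNA helicases, DDX27 was higher than control in both assays and both classes (0.22, 0.31, 0.28 and 0.21). DDX55 was lower in large-subunit knockdowns (-0.24) and lower than in small-subunit knockdowns (-0.23, SE 0.053, adjusted p = 3.6e-04 by edgeR), as was DDX51 (-0.18), in RNA-seq. DDX18, DDX54 and DDX56 were not called in RNA-seq or Ribo-seq.

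The largest departures of a single member in a single target all lay below control in RNA-seq and Ribo-seq, and are named after their values were seen. In the RPL26 knockdown, PELP1 was at -2.32 in RNA-seq (17.2 CPM) and -3.16 in Ribo-seq (15.3 CPM), and RRP1B at -2.02 (28.7 CPM) and -2.83 (9.62 CPM), from 1 library. Without that library PELP1 stayed called in large-subunit knockdowns (-0.38 in RNA-seq), as did RRP1B (-0.31 and -0.45), and the complex had 5 rather than 4 members lower in RNA-seq. EBNA1BP2 was at -1.67 and -1.71 in the RPL21 knockdown, with both libraries between 39 and 39.8 CPM in RNA-seq. MAK16 was at -0.93 and -1.54 in the RPL15 knockdown, from 2 libraries. NOC3L was at -1.43 and -2.25 in the RPL13A knockdown, and NSA2 at -1.30 and -1.68 in the RPS2 knockdown, each from 1 library. RPS2 stands in the last run of columns, apart from the controls of its ratio. In the 2 RPS15 libraries, matched as said above, NOC3L was at -1.76 and RSL24D1 at -1.58 in RNA-seq, and at -0.38 and -0.81 in Ribo-seq. In RNA-seq control 20_2 was as low or nearly so for NOC3L (-2.36), RSL24D1 (-1.42), MAK16 (-1.32) and NSA2 (-1.17). Whether these low values follow the ribosomal protein or the siRNA used was not tested.

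The median over all 51 members was set beside that of the controls. Among the 11 controls, the members' median ran from -0.27 (control 20_2) to 0.13 in RNA-seq and from -0.04 to 0.11 in Ribo-seq. In RNA-seq 0 large- and 0 small-subunit targets lay above these controls, and 1 of each below them. In Ribo-seq 3 large- and 3 small-subunit targets lay above the controls, and 5 and 4 below. The members' median was lowest in RNA-seq in the knockdowns of RPL36 (-0.27), RPL13A (-0.24), RPS18 (-0.23), RPL38 (-0.21) and RPS15 (-0.21), and highest in those of RPS26 (0.27), RPS12 (0.25), RPL24 (0.24), RPLP2 (0.22) and RPL5 (0.19). In Ribo-seq it was lowest in RPS18 (-0.31), RPL6 (-0.25), RPL13A (-0.24), RPS27 (-0.24) and RPL38 (-0.24), and highest in RPS12 (0.25), RPS26 (0.24), RPL11 (0.21), RPLP2 (0.21) and RPLP1 (0.20). Targets of both subunits stand at both ends. The median was above 0 in 13 of 44 large-subunit and 14 of 31 small-subunit targets in RNA-seq, and in 18 and 12 in Ribo-seq. In translation efficiency it was above 0 in 23 large-subunit targets and in 3 of 31 small-subunit targets, lowest in the RPS27 knockdown (-0.16) and highest in the RPL37 knockdown (0.16). Over targets, the typical member varied less than the typical gene, with a median SD of 0.246 against 0.316 in RNA-seq and 0.279 against 0.415 in Ribo-seq. The SD over targets exceeded the SD over the 11 controls in 43 members in Ribo-seq but in 17 in RNA-seq, where control 20_2 widens the spread.

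**Figure D5:**
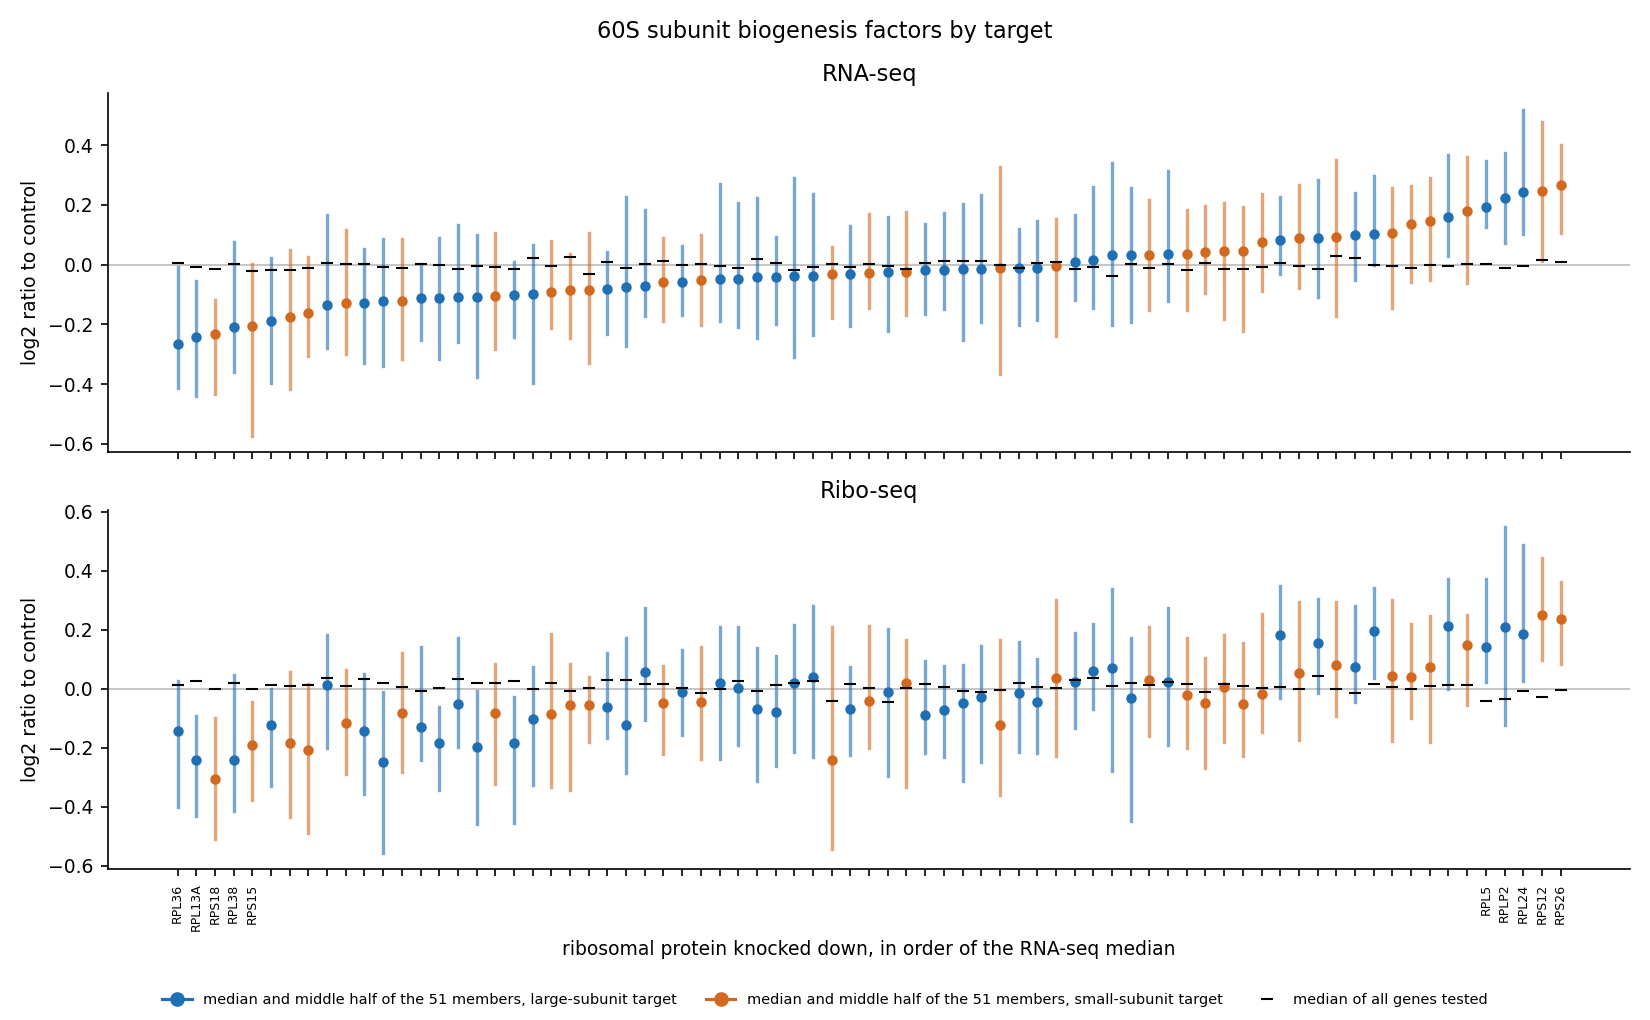
Median log2 ratio to control over the 51 members for each of 75 targets, ordered by the RNA-seq value with the 5 at each end labelled, in RNA-seq and Ribo-seq, coloured by subunit, with the median of all genes as dashes. The medians run from -0.27 to 0.27 in RNA-seq and from -0.31 to 0.25 in Ribo-seq.

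Of 38 other genes of the 60S pathway that are not members, 2 were higher and 5 lower in large-subunit knockdowns in RNA-seq, and 3 higher and 5 lower in Ribo-seq. In small-subunit knockdowns the counts were 1 and 6, and 2 and 6. The first 4 shares (5.26%, 13.2%, 7.89% and 13.2%) lie below those of all genes (15.5%, 20.0%, 14.9% and 14.9%), and the small-subunit shares are 2.63%, 15.8%, 5.26% and 15.8%, against 13%, 15.9%, 12.5% and 12.4%. ISG20L2, an exonuclease of rRNA processing, rose in large-subunit knockdowns (0.48 and 0.54 in RNA-seq and Ribo-seq). CEBPZ, the human relative of an early nucleolar factor, fell in both classes and both assays (-0.57 and -0.37 in large-subunit, -0.46 and -0.41 in small-subunit knockdowns), as did GRWD1 mRNA (-0.39 and -0.43). The export receptor XPO1 had fewer footprints in both (-0.51 and -0.38). MYC mRNA differed from control in neither class past the threshold (-0.03 and -0.23) and was higher in large- than in small-subunit knockdowns by 0.20 (SE 0.065, adjusted p = 0.011 by edgeR).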

How the data were processed

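Each assay has a table of deposited raw counts per gene: exon counts in RNA-seq, and counts within coding sequence in Ribo-seq, as the column names state. The submitters' processing notes name STAR 2.6.1, cutadapt 1.8.1, bcl2fastq 2.20.0.422 and GRCh38. How reads were counted (program, strand, reads mapping to several genes) is not given in the sources used here. Spans of 31 members overlap another RefSeq gene.

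Genes that reached 1 CPM in 11 or more libraries were tested with edgeR 4.0.16 in R 4.3.3 (quasi-likelihood test, TMM scaling, title set as covariate, control, large- and small-subunit groups in 1 fit per assay), with Benjamini-Hochberg adjustment over all genes tested and a threshold of 0.05. Translation efficiency was the interaction of assay and group over 204 libraries. limma 3.58.1 tested per-lysate log2 ratios (prior count 2), and DESeq2 1.42.0 was an alternative. Ratios of single targets use CPM plus 0.5. SE come from the fold change and test statistic. The scripts were tested on simulated data. Libraries of 1 group differed by more than sampling noise (chi-square per degree of freedom at least 3.26 over 41 pairs per assay). RNA-seq and Ribo-seq come from 1 lysate by protocol; their deviations from group means had a median r of 0.214 over 43 lysates, with 65.1% over 0.1.

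Full values are given for the 3 called members with the largest fold change per direction in each of 9 comparisons, for PES1, BOP1 and WDR12, for factors with a ribosomal protein partner, and for the 3 called genes per direction of the other 60S genes, of which some are left out of the text. The members, lists and rule were chosen with earlier results of these data known. Some values of single targets and markers are not reported here.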

Additional observations from a re-analysis of the deposited data

Results flagged for a closer look

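Control library 20_2 stood apart from the other numbered controls in 3 of 12 groups of control values tested with Dixon's criterion. Chance flags about 1 in 20 groups, but these groups are not independent. Translation efficiency uses the same RNA-seq values, NOP53 is 1 of the 51 members, and all 3 flags fall on this library. The median of the 51 members was lowest there in RNA-seq (-0.27) and highest in translation efficiency (0.29), and NOP53 mRNA was highest (0.55). It had 14 members below -1 and 22 above 0 in RNA-seq, NOC3L being lowest at -2.36.

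The response against control differed between large- and small-subunit knockdowns, by the direct test between both classes, for 17 members in RNA-seq (33.3%, against 31.6% of all genes tested), 15 in Ribo-seq (29.4%, against 22.1%) and 1 in translation efficiency (where 3.59% of all genes were called). The RNA-seq share is thus near that of all genes. In RNA-seq the difference was negative for LSG1 (-0.24), DDX55 (-0.23), PELP1 (-0.22), NVL (-0.21), LAS1L (-0.19) and DDX51 (-0.18). It was positive for ZNF622 (0.13), NIP7 (0.14), NOP2 (0.15), EIF6 (0.15), RSL1D1 (0.17), GNL3L (0.20), NSA2 (0.27), NLE1 (0.28), RRS1 (0.30), RSL24D1 (0.37) and NOP53 (0.92). In Ribo-seq it was negative for NOP53 (-0.35), LAS1L (-0.21), SENP3 (-0.18) and EBNA1BP2 (-0.18), and positive for EIF6 (0.14), EFL1 (0.16), NMD3 (0.18), SBDS (0.18), RRP15 (0.20), GNL3 (0.20), RSL24D1 (0.21), NOP2 (0.21), GNL3L (0.24), RRS1 (0.28) and NSA2 (0.33). In translation efficiency it was negative for NOP53 (-1.27).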

How the results depend on the processing

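Counts of members called depended on the title set. Except for the per-lysate limma fit given above, shares of all genes called in the settings of this section are not given here. The counts thus cannot tell a change of the members from a change of all genes. Within numbered titles, large-subunit knockdowns against control had 1 member lower in RNA-seq and 3 in Ribo-seq, small-subunit knockdowns 2 higher and 3 lower in RNA-seq and 4 lower in Ribo-seq, and large against small 7 higher and 0 lower in RNA-seq (edgeR, 1 lower at an unadjusted p under 0.05) and 2 lower in Ribo-seq. Within unnumbered titles the first comparison had 4 lower in RNA-seq and 1 higher and 1 lower in Ribo-seq, the second 3 lower in RNA-seq and 0 higher (4 unadjusted) and 1 lower in Ribo-seq, and the third 7 and 13, 3 and 2, and in translation efficiency 1 and 2, with 0 higher (1 unadjusted) in the second. Without a title set term, RNA-seq gave 5 lower in the second and 18 lower in the third, Ribo-seq 3 higher and 13 lower, and translation efficiency 3 higher and 2 lower in the third; PES1 in RNA-seq turned from 0.03 to -0.15. Without a filter on low counts 3 and 4 were lower against control and 7 higher in the third in RNA-seq. With libraries of a target summed, RNA-seq gave 8 higher in the second and 7 in the third, Ribo-seq 5 higher and 2 lower in the third.

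With the replicate number as a block, 11 members were higher in large-subunit knockdowns in RNA-seq, and RSL24D1 in small-subunit knockdowns was -0.14 in RNA-seq and -0.20 in Ribo-seq, neither past the threshold (adjusted p = 0.40 and 0.19, edgeR). The numbers did not pair the libraries: deviations of same-numbered libraries had a median r of -0.06 in RNA-seq and 0.10 in Ribo-seq. That fit also gave controls 21_1 and 21_2, which were assigned no replicate number, a term of their own. These controls thus did not enter its comparison with control. Whether the number or the loss of these controls moved RSL24D1 was not tested. Paired by lysate as a block, translation efficiency gave 2 lower, 2 lower, and 6 higher and 5 lower in the 3 comparisons. Further alternatives were chosen after the data were seen: with the run of columns as a term, 11 were higher (RNA-seq) and 2 lower (translation efficiency) in large-subunit knockdowns, and without the RPL26 knockdown all 39 named values stayed called, as under RLE scaling and DESeq2.

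Leaving out 1 control at a time, members higher and lower ranged in RNA-seq from 6 to 8 and 8 to 10 (large), 4 to 7 and 7 to 8 (small), and 11 to 13 and 6 to 6 (large against small). In Ribo-seq they ranged from 9 to 11 and 6 to 10, 3 to 6 and 7 to 9, and 11 to 12 and 3 to 4. In translation efficiency they ranged from 0 to 0 and 0 to 1, 1 to 1 and 0 to 0, and 0 to 0 and 1 to 1. Of the 39 named values 36 to 39 stayed called. The cause of these changes was not tested, beyond the smaller number of libraries within a title set. Precision is limited by 11 controls, by 1 library for most targets, and by the spread that control 20_2 adds in RNA-seq.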
